A study of Mus musculus with 8 samples.

Results

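Brain endothelial and barrier genes were examined as a set of 10: Cldn5, Cdh5, Pecam1, Flt1, Kdr, Tek, Slco1a4, Abcb1a, Mfsd2a and Ly6c1. They were taken by symbol from the 46078 gene entries of a hippocampal RNA-seq count table. Each of the 10 matched 1 entry, and all 10 had enough counts to be tested, with 189 to 1366 counts in every library. The table holds 4 libraries of mice that carry 1 copy of the Tg(Camk2a-cre)2Gsc transgene (Cre, also called CamiCre) and 4 libraries of wild-type mice (WT). Both groups were 9 weeks old and of strain C57BL/6J per the labels, which name no floxed allele in either. The transgene uses Camk2a sequences, which are active in excitatory neurons of the forebrain, so that Cre is not directed to the endothelium. Each library has a genotype and a replicate number, and the labels do not say whether it came from a different animal, so that p-values measure the spread between these libraries.

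Endothelial cells line the vessels of the brain and seal off the blood from the tissue. Tight junctions with claudin-5 close the path between neighbouring cells, efflux pumps and carriers control what passes through them, and lipid transport by Mfsd2a is known to keep transport by vesicles low. Signals through VEGF and angiopoietin receptors maintain the vessels, and Wnt ligands of neural cells act on the endothelium to induce the barrier programme. In a whole hippocampus these cells are a small share of the RNA. The comparison asked whether their transcripts differ in mice that carry the Cre transgene.

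None of the 10 genes passed the test for a difference between Cre and WT hippocampus. At a threshold of 0.05 on p-values adjusted over 15859 genes (edgeR, quasi-likelihood), 0 of the 10 passed, each with an adjusted p of 0.999. Of all tested genes 0.0315% passed, 0.0252% higher and 0.00631% lower in Cre. DESeq2, limma voom and edgeR's exact test also called 0 of the 10. At an unadjusted p under 0.05 there was 1, Ly6c1, which was higher, where 3.5% of all tested genes reached this p in either direction and 2.05% as higher. The log2 fold changes of Cre over WT ran from -0.08 for Pecam1 to 0.20 for Ly6c1, with 6 above 0 and 4 below. Their median was 0.04, beside 0.0004 over all tested genes, of which 50.2% lay above 0. The median of the 10 turned to -0.03 without Cre replicate 1 and to -0.07 without WT replicate 4, and was 0.10 without WT replicate 2. In all 10 genes the values of the 4 Cre and 4 WT libraries overlapped. This is the usual case, as the groups did not overlap in only 2.31% of all tested genes. In bulk RNA a difference in the number of endothelial cells and a difference in RNA per cell cannot be told apart.

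The libraries held 21339996 to 27826871 counts in Cre and 24289522 to 26950207 in WT. Syt2, the gene named in the title of the series, had 176 ± 12.2 CPM in Cre and 35.4 ± 4.10 CPM in WT (SD, n = 4 each), with no overlap. As the series names this gene, its levels check how libraries were assigned to groups and are no independent check of genotype. CPM are counts scaled to a common normalised library size. Excitatory neuron markers summed to 7903 to 8494 CPM in Cre and 7935 to 8439 CPM in WT. Camk2a made up most of this sum, at 4669 ± 149 CPM in Cre and 4652 ± 120 CPM in WT. Markers of other cell types differed between single libraries: choroid plexus epithelium was high in WT replicate 1, microglia in Cre replicate 1, and meningeal fibroblasts and smooth muscle in WT replicate 2. Their values are given beside the genes they touch.

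Promoter sequences are shown for 3 of the genes as a description. Cldn5 and Kdr were highest in replicate 1 and lowest in replicate 4 of both genotypes, while Mfsd2a was lowest in replicate 1. Each window runs from 250 bases before to 50 after the start annotated by RefSeq (GRCm38.p6). Capitals mark GGAA or its reverse complement TTCC, the core letters bound by ETS factors, a family with a known part in endothelial gene regulation. The Cldn5 window lies at chr16:18776597-18776896 on the plus strand, the Kdr window at chr5:75978406-75978705 and the Mfsd2a window at chr4:122961139-122961438, both on the minus strand.
Cldn5: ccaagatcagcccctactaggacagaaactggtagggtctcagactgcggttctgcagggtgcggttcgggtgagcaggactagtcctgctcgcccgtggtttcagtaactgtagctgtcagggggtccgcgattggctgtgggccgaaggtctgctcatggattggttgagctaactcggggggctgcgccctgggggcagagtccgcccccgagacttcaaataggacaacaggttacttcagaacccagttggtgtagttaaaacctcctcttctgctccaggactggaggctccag
Kdr: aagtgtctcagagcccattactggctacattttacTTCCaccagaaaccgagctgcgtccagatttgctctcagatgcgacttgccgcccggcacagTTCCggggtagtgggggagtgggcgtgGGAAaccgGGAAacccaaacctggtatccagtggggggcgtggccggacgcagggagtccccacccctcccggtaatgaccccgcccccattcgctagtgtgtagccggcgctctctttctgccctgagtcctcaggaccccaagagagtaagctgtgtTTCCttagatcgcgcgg
Mfsd2a: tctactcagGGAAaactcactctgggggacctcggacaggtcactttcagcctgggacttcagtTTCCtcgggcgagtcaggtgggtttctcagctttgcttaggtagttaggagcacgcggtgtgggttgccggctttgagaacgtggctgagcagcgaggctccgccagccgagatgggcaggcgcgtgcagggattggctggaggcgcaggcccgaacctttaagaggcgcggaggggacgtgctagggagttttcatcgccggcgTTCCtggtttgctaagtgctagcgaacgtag
The core occurred 0 times in the Cldn5 window, 5 times in that of Kdr and 3 times in that of Mfsd2a. It was present in 96.0% of all 32851 windows of this length, with a median of 3 matches. The longer form CCGGAA, searched on both strands and containing the core, was found once in the Kdr window, in neither of the others, and in 14.9% of all windows. Windows were found for 8 of the 10 genes. In those not shown the core occurred 4 times for Flt1, 5 for Slco1a4, 2 for Tek, 5 for Abcb1a, and 4 and 8 for Ly6c1. These are matches of letters, not measured binding sites. A link between them and the levels of the genes was not tested.

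The junction genes came first among the roles. Cldn5 encodes claudin-5, the main claudin of the barrier's tight junctions, in 1 exon on the plus strand of chromosome 16 (18776847 to 18778262, GRCm38). It had 26.8, 21.5, 23.9 and 20.3 CPM in Cre replicates 1 to 4, against 27.2, 23.7, 21.2 and 17.2 CPM in WT replicates 1 to 4. Replicate 1 was highest in both genotypes, WT replicate 4 was lowest of all 8, and the Cre values lay within the WT range. Cre over WT was 0.05 on the log2 scale, with an SE of 0.12 and a 95% confidence interval of -0.22 to 0.32, so that changes below -14.1% or above 24.9% lie outside the interval. Its sign turned without Cre replicate 1 (-0.03) or WT replicate 4 (-0.05).

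Cdh5 encodes VE-cadherin, which holds endothelial cells together at adherens junctions (chromosome 8, 104101625 to 104144511, plus strand). Its levels were 9.29, 9.88, 8.69 and 8.19 CPM in Cre replicates 1 to 4, against 9.52, 11.5, 8.31 and 7.78 CPM in WT replicates 1 to 4. The Cre libraries again lay within the WT range, whose ends were WT replicates 2 and 4. Pecam1, which encodes the adhesion molecule CD31 of endothelial contacts and of some blood cells, lies on the minus strand of chromosome 11 (106654217 to 106750628). It had 13.01, 11.5, 12.98 and 10.6 CPM in Cre replicates 1 to 4, against 11.8, 16.7, 11.1 and 11.2 CPM in WT replicates 1 to 4. WT replicate 2 stood well above the other 7 libraries. The log2 fold changes were -0.05 for Cdh5 (SE 0.12) and -0.08 for Pecam1 (SE 0.13), and both were 0.08 when WT replicate 2 was left out.

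That library was also the highest for markers of other cells that come with vessels and meninges. The 8 tested smooth muscle markers summed to 52.2 to 65.5 CPM in Cre, to 78.2 CPM in WT replicate 2 and to 44.8 to 48.3 CPM in the other WT libraries. The 10 markers of meningeal and perivascular fibroblasts summed to 141 to 159 CPM in Cre, 217 CPM in WT replicate 2 and 142 to 181 CPM in the rest of WT. Red blood cell genes, 5 in all, summed to 35.1 to 47.2 CPM in Cre, 54.2 CPM in WT replicate 2 and 29.9 to 36.2 CPM in the rest of WT. It also had the most of the 4 tested markers of perivascular macrophages, whose sums were 2.79 to 3.99 CPM in Cre and 2.52 to 5.52 CPM in WT. Their part in the level of Pecam1, Cdh5 and Tek in this library was not tested.

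**Figure D1:**
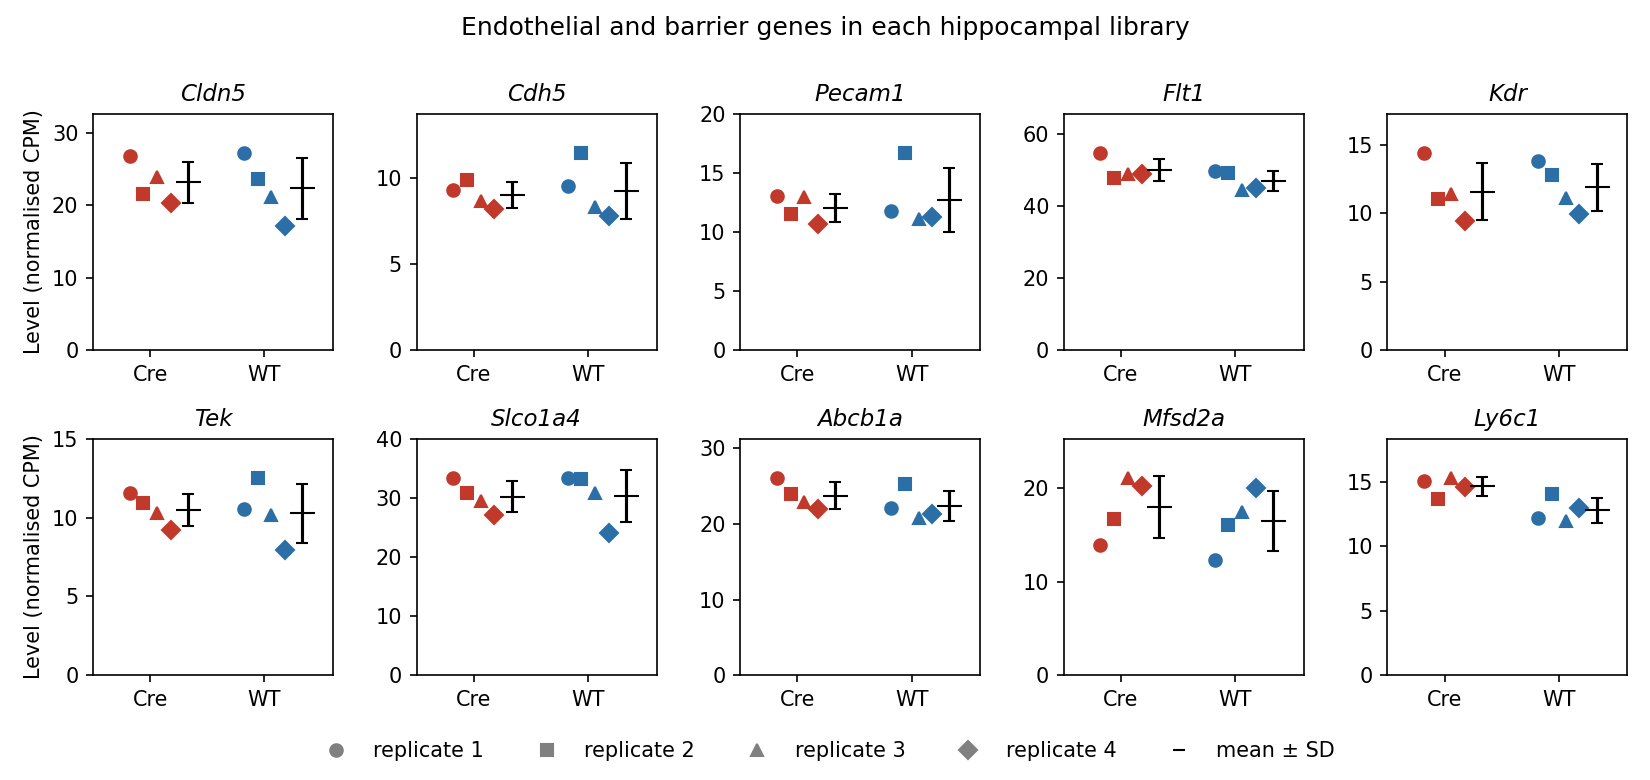
Normalised CPM of the 10 genes in each of 4 Cre and 4 WT libraries (symbols give the replicate number, bars the mean ± SD of a genotype). The genotypes overlap in every panel, Pecam1 has its highest value of 16.7 CPM in WT replicate 2, and Mfsd2a is lowest in the replicate 1 libraries, where Cldn5 and Kdr are high.

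The receptor tyrosine kinases gave the most precise value of the set. Flt1 encodes VEGF receptor 1, which binds VEGF and limits its action on receptor 2 (chromosome 5, 147561604 to 147726011, minus strand). Flt1 had 54.8, 47.8, 48.8 and 48.9 CPM in Cre replicates 1 to 4, against 49.7, 49.2, 44.5 and 44.9 CPM in WT replicates 1 to 4. Cre replicate 1 stood apart from the other 3 Cre libraries, which fell between the lower and the upper pair of WT libraries. Cre over WT was 0.09 on the log2 scale (SE 0.06, interval -0.03 to 0.21), which leaves outside it changes below -2.14% and above 15.5%. Without Cre replicate 1 it was 0.04.

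Kdr encodes VEGF receptor 2, the main signalling receptor for VEGF (chromosome 5, 75932827 to 75978458, minus strand). Its levels stood at 14.4, 11.1, 11.4 and 9.42 CPM in Cre replicates 1 to 4, against 13.8, 12.8, 11.1 and 9.92 CPM in WT replicates 1 to 4. In both genotypes replicate 1 was highest and replicate 4 lowest. Tek encodes Tie2, the receptor of the angiopoietins (chromosome 4, 94739289 to 94874976, plus strand). It was measured at 11.5, 10.97, 10.3 and 9.21 CPM in Cre replicates 1 to 4, against 10.6, 12.5, 10.2 and 7.94 CPM in WT replicates 1 to 4. The log2 fold changes were -0.04 for Kdr (SE 0.13, interval -0.32 to 0.23) and 0.02 for Tek (SE 0.13, interval -0.26 to 0.30). For Kdr the sign turned without Cre replicate 4 (0.04) or WT replicate 1 (0.03), and for Tek without Cre replicate 1 (-0.02) or WT replicate 4 (-0.08).

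Among the transport genes, Slco1a4 encodes an organic anion carrier, Oatp1a4, of the rodent barrier (chromosome 6, 141805440 to 141856199, minus strand). It had 33.3, 30.7, 29.5 and 27.1 CPM in Cre replicates 1 to 4, against 33.3, 33.2, 30.8 and 24.0 CPM in WT replicates 1 to 4. Its means of 30.2 ± 2.61 CPM in Cre and 30.3 ± 4.36 CPM in WT (SD, n = 4 each) were the closest of the 10, with a log2 fold change of -0.01 (SE 0.08, interval -0.19 to 0.17). With a change so near 0 this SE and interval are rough. The sign turned in 4 of the 8 fits that left out 1 library, namely without Cre replicate 3 (6e-04), Cre replicate 4 (0.04), WT replicate 1 (0.04) or WT replicate 2 (0.04).

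Abcb1a encodes the drug efflux pump P-glycoprotein of mouse brain capillaries (chromosome 5, 8660077 to 8748575, plus strand). Abcb1a stood at 26.1, 23.9, 23.0 and 21.9 CPM in Cre replicates 1 to 4, against 22.1, 25.2, 20.8 and 21.3 CPM in WT replicates 1 to 4. All 4 Cre libraries were above the WT median, as for Flt1 and Ly6c1, and the log2 fold change was 0.08 (SE 0.07, interval -0.08 to 0.24). It was 0.03 without Cre replicate 1, 0.05 without WT replicate 3 and 0.15 without WT replicate 2. Its paralog Abcb1b had 4.24 ± 0.63 CPM in Cre and 4.17 ± 0.74 CPM in WT (log2 fold change 0.02, SE 0.16), so that the pump's transcripts were mostly assigned to Abcb1a in both genotypes.

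Mfsd2a encodes a carrier of lysophosphatidylcholine with docosahexaenoic acid, an omega-3 fatty acid (chromosome 4, 122946850 to 122961188, minus strand). It had 14.0, 16.7, 21.1 and 20.2 CPM in Cre replicates 1 to 4, against 12.3, 16.1, 17.5 and 20.04 CPM in WT replicates 1 to 4. The highest library was 1.71 times the lowest, the widest range of the 10 genes, and replicate 1 was the lowest in both genotypes. The log2 fold change of 0.13 (SE 0.14, interval -0.17 to 0.44) was the least precise of the set, leaving outside the interval changes below -11.0% and above 35.5%. It was 0.02 without WT replicate 1, 0.05 without Cre replicate 3 and 0.08 without Cre replicate 4, but 0.24 without either Cre replicate 1 or WT replicate 4.

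Ly6c1 encodes a small surface protein of the Ly6 family that marks brain endothelium in mice (chromosome 15, 75044018 to 75048830, minus strand). It was counted at 15.1, 13.7, 15.3 and 14.6 CPM in Cre replicates 1 to 4, against 12.2, 14.1, 11.96 and 12.96 CPM in WT replicates 1 to 4. Of the Cre libraries, 3 lay above every WT library, and Cre replicate 2 fell below WT replicate 2. The log2 fold change was 0.20 (SE 0.07, interval 0.04 to 0.36; unadjusted p = 0.0177 and adjusted p = 0.999 by edgeR). An exact permutation test, which enumerates 70 arrangements of the genotype labels, gave a 2-sided p of 0.0571, where 0.0286 is the smallest it can give. With 1 library left out the unadjusted p by edgeR ran from 0.00636 (without WT replicate 2) to 0.0511 (without WT replicate 3). The same libraries underlie the authors' deposited table, where Ly6c1 has a log2 fold change of 0.20 and a p-value of 0.0216, the smallest of the 10, and p-values of the other 9 run from 0.156 to 0.948.

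Ly6c1 has a close paralog, Ly6c2, known from monocytes and on the same strand (75108158 to 75111970). Coding bases 1 to 100 of both, from GENCODE M21, are shown, with the few bases that differ in capitals.
Ly6c1: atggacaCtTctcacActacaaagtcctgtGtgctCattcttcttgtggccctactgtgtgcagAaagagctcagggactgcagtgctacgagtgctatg
Ly6c2: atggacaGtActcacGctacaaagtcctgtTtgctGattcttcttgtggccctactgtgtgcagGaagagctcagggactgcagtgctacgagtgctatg
Both have 393 coding bases and differ at 9 of them (97.7% identical), 6 of which lie in the stretch shown. The longest identical stretch is 188 bases, longer than a 150-base read, though reads came in pairs. Ly6c1 has 1677 bases of merged exons, and bases outside the coding sequence were not aligned. Ly6c2 had 1 count over the Cre libraries and 4 counts over the WT libraries, and Ly6c1 had 288 to 428 counts a library. How the counting treated reads that fit both genes is not given in the sources used here. Abcb1a and Abcb1b have 87.7% of aligned coding bases in common, and their longest identical stretch is 338 bases. Slco1a4 shares 89.4% with Slco1a5 (5 counts over Cre and 20 over WT), 85.0% with Slco1a6 (0 and 5) and 79.3% with Slco1a1 (0 in all 8 libraries). Of the 20 WT counts of Slco1a5, 15 fell in WT replicate 1, as did all 5 of Slco1a6.

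**Figure D2:**
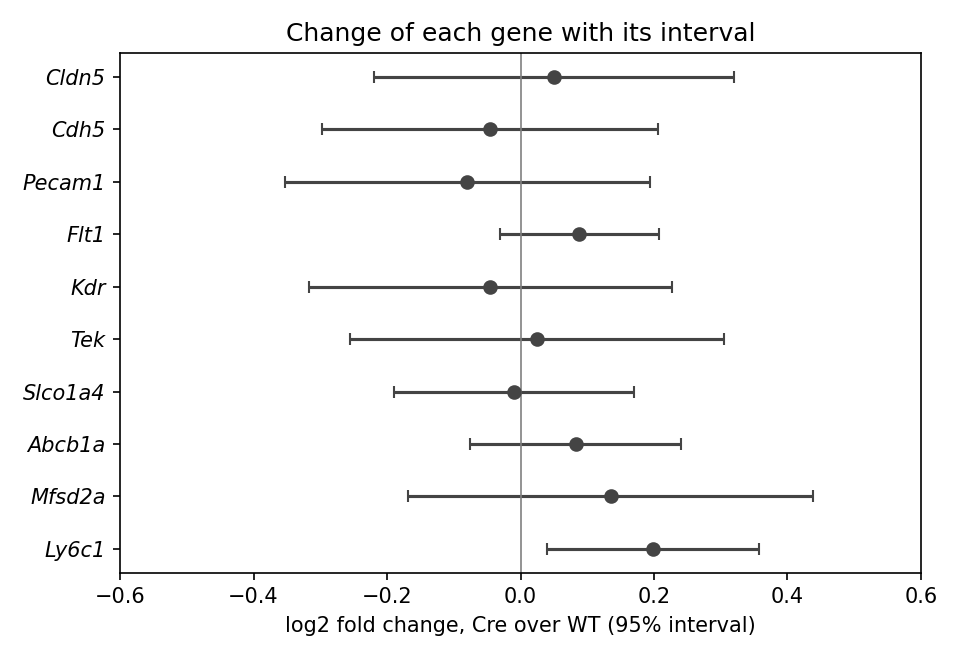
Log2 fold change of Cre over WT (points) with its 95% confidence interval (bars) for the 10 genes, from edgeR's quasi-likelihood fit. The intervals include 0 for 9 genes, and that of Ly6c1 runs from 0.04 to 0.36 without passing after adjustment over all genes.

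Levels of different genes were set side by side as CPM per kb of merged exons. On this scale Cldn5 was the highest, at 16.3 ± 2.02 CPM per kb in Cre and 15.8 ± 2.98 CPM per kb in WT (SD, n = 4 each), and its lowest library was above the highest of any other of the 10. Ly6c1 followed at 8.75 ± 0.44 CPM per kb in Cre and 7.63 ± 0.57 CPM per kb in WT, then Mfsd2a at 7.998 ± 1.46 and 7.32 ± 1.43 CPM per kb in the same groups, with ranges over the 8 libraries that overlapped. The next genes, whose ranges ran into each other, were Slco1a4 (a level of 4.72 CPM per kb over the 8 libraries), Abcb1a (4.20) and Flt1 (3.60). Tek (2.21), Cdh5 (2.17) and Pecam1 (1.99) came next, again with overlapping neighbours. Kdr was lowest at a level of 1.30 CPM per kb, below every library of Pecam1, the gene next above it. Flt1, the highest of the 10 in CPM, has 13504 bases of merged exons, and Cldn5 has 1416. Merged exons pool all annotated transcripts of a gene, so the order depends on this choice of length.

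The genes varied from library to library by more than most genes of like level. Their median biological coefficient of variation, the part of the spread that edgeR does not assign to counting, was 10.99%, against 6.00% for the 5518 tested genes within the same CPM range. It was 5.45% for Flt1, 6.16% for Ly6c1 and 6.78% for Abcb1a, and from 9.18% to 14.0% for the other 7. In WT the observed coefficient of variation was 21.0% for Pecam1, where counting error gives 5.53%, and 5.86% for Flt1, where it gives 2.88%. Ly6c1 in Cre, at 4.98%, varied no more than the 5.28% that counting gives.

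This spread was shared. For each gene, the deviation of a library was taken from the gene's mean log2 CPM over the 8 libraries. Leaving Mfsd2a aside, all 9 others were above their mean in Cre replicate 1 and in WT replicate 2, with medians of 0.16 and 0.14. Markers of some other cell types were higher still in Cre replicate 1. Median deviations there were 0.41 for microglia, 0.31 for oligodendrocytes, 0.30 for red blood cell genes and 0.19 for pericytes. Choroid plexus and perivascular macrophage markers had 0.14 each, astrocyte endfoot markers 0.06, smooth muscle 0.05 and excitatory neurons 0.02 in Cre replicate 1. Fibroblast markers had -0.05 and interneuron markers -0.19 in this library. Oligodendrocyte markers summed to 5184 CPM in that library, 4043 to 4844 CPM in the remaining Cre libraries and 4021 to 4472 CPM in WT, and their part in the endothelial levels was not tested. In WT replicate 4 all 9 genes other than Mfsd2a were below their mean, with a median of -0.22 and a range of -0.39 to -0.08. Cre replicate 4 and WT replicate 3 were low for most (2 and 1 of the 9 above the mean), and the remaining 3 libraries had medians from -0.002 to 0.04. High and low libraries therefore occurred within both genotypes. All 36 pairs among these 9 genes had a Pearson correlation above 0 over the 8 libraries, from 0.02 to 0.93 with a median of 0.63, given as a description since the pairs share libraries and depth.

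Mfsd2a went the other way. Its deviation was -0.28 in Cre replicate 1 and -0.46 in WT replicate 1, and 0.25 in Cre replicate 4 and 0.24 in WT replicate 4. Of its 9 pairs with the other genes, 8 had correlations below 0, down to -0.85, and 1 was above, at 0.32. The ratio of Mfsd2a to Cldn5 in CPM was 0.52, 0.78, 0.88 and 0.99 in Cre replicates 1 to 4, against 0.45, 0.68, 0.83 and 1.17 in WT replicates 1 to 4. The low end was held by replicate 1 and the high end by replicate 4 in both genotypes, and the Cre values lay within the WT range. The 7 tested choroid plexus markers summed to 127 to 166 CPM in Cre, to 1595 CPM in WT replicate 1, the lowest library in Mfsd2a, and to 128 to 152 CPM in the rest of WT. Cre replicate 1, next lowest in Mfsd2a, had 166 CPM of them and the highest sum of microglia markers, 557 CPM, where the remaining Cre libraries had 422 to 434 CPM and the WT libraries 387 to 418 CPM. Their part in the level of Mfsd2a was not tested.

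**Figure D3:**
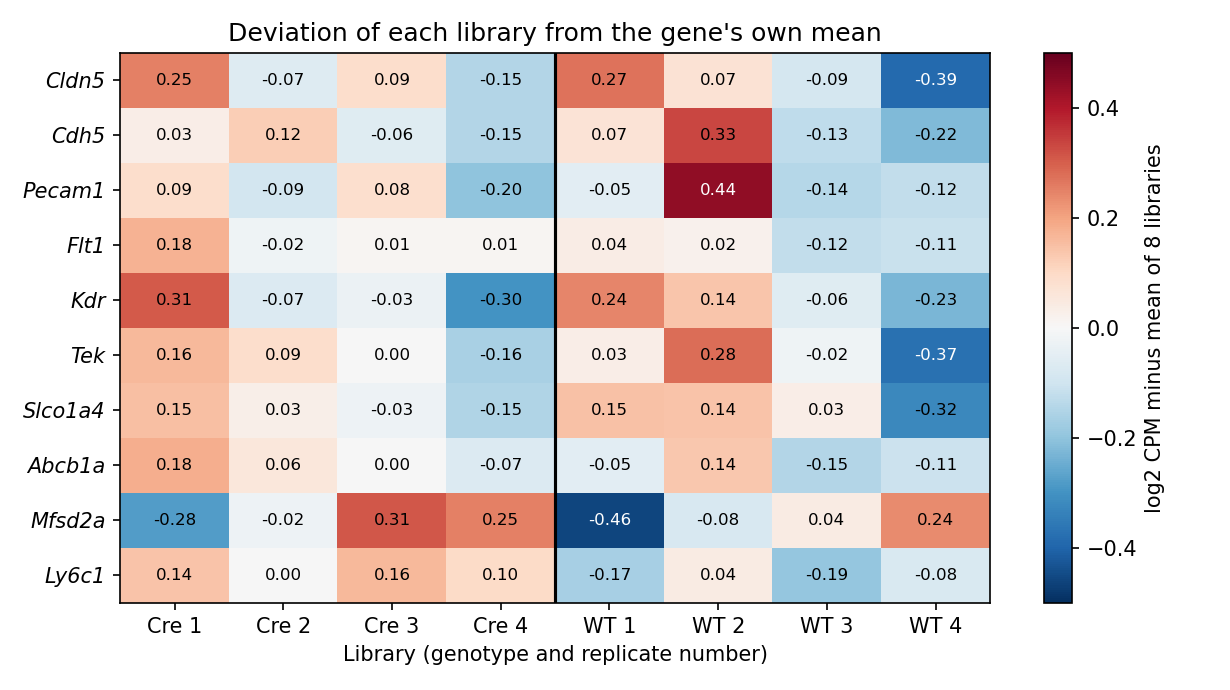
Deviation of each library from the gene's own mean of log2 CPM over 8 libraries (colour and printed value), with the Cre libraries left of the black line and the WT libraries right of it. Cre replicate 1 and WT replicate 2 are above the mean for all genes other than Mfsd2a, WT replicate 4 is below it for all of these, and Mfsd2a runs from -0.46 in WT replicate 1 to 0.31 in Cre replicate 3.

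The mean of the 10 scaled profiles was then set against every other tested gene averaging at least 1 CPM, 14181 in all. The 5 most alike by Pearson correlation over the 8 libraries were Gm14303 (0.97), Gucd1 (0.97), Rfc3 (0.95), Cecr5 (0.94) and Oscp1 (0.94), none of which is in the vascular lists. With 8 libraries and this many genes such values are a ranking only. By list, the median correlation was 0.71 for 22 other endothelial identity genes, 0.69 for 5 red blood cell genes, 0.67 for 12 genes of the vascular basement membrane and 0.65 for 11 pericyte markers. It was 0.58 for 10 fibroblast markers, 0.51 for 7 smooth muscle markers, 0.50 for 8 oligodendrocyte markers and 0.49 for 10 microglia markers, above the 0.35 of 19 barrier transporters and receptors, the 0.30 of 13 tight junction partners and the 0.25 of 15 Wnt genes. The median was 0.54 for 8 leak and activation genes, 0.34 for 11 VEGF and angiopoietin genes and 0.16 for 9 arterial and venous genes. The likeness was thus shared by some lists of other cell types. Others did not share it, with medians of 0.15 for 7 choroid plexus markers and 0.004 for 8 astrocyte endfoot markers. The median was -0.31 for 7 excitatory neuron markers, -0.31 for 6 interneuron markers and -0.01 over all genes.

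The wider endothelial and barrier programme, in lists named for their known roles, also had 0 genes past the threshold in either direction, by DESeq2, limma voom, or edgeR's quasi-likelihood or exact test. S1pr1 and Lef1, both higher, and Foxq1, lower, reached an unadjusted p under 0.05 by the quasi-likelihood test, and 0 genes did in the lists of transporters, junction partners, VEGF and angiopoietin genes, arterial and venous genes, leak and activation genes, basement membrane and paralogs. Over all tested genes 3.5% reached this p, 2.05% as higher. Of 22 other endothelial identity genes 14 lay above 0, with a median log2 fold change of 0.06. S1pr1, which encodes a receptor for sphingosine-1-phosphate found on endothelium and astrocytes, had 130 ± 7.51 CPM in Cre and 120 ± 3.70 CPM in WT (0.12 on the log2 scale, SE 0.05). Robo4, an endothelial guidance receptor gene, had 4.73 ± 0.53 and 3.88 ± 0.82 CPM in the same groups (log2 fold change 0.28, SE 0.16). Of 19 barrier transporter and receptor genes 10 lay above 0 (median 0.01), with the smallest p for the zinc carrier gene Slc39a10 at -0.08 (SE 0.05) and the flippase gene Atp10a at 0.19 (SE 0.13). Among 13 tight junction partners 10 lay above 0 (median 0.02), and those with the smallest p, not the largest change, were Tjp1, which encodes the scaffold ZO-1, at 0.08 (SE 0.04) and the catenin gene Ctnna1 at 0.09 (SE 0.05).

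Ligands and receptors of the same pathways followed. Of 12 VEGF and angiopoietin genes 7 lay above 0 (median 0.02), with Pgf, placental growth factor and a ligand of Flt1, at 0.30 (SE 0.15) and the lymphatic VEGF receptor gene Flt4 at 0.23 (SE 0.21). In the Wnt and beta-catenin programme 9 of 15 lay above 0 (median 0.01). Foxq1, a forkhead factor gene of brain endothelium, had 2.77 ± 0.36 CPM in Cre and 3.71 ± 0.86 CPM in WT. Its log2 fold change was -0.42 (SE 0.18, unadjusted p = 0.0358 and adjusted p = 0.999 by edgeR). WT replicates 1 to 4 had 4.92, 3.71, 3.03 and 3.17 CPM of Foxq1, and the Cre libraries 2.46 to 3.29 CPM. Lef1, which encodes a transcription factor of Wnt signalling that is also abundant in thalamus, had 4.76 ± 0.30 CPM in Cre and 3.84 ± 0.61 CPM in WT, a log2 fold change of 0.31 (SE 0.14, unadjusted p = 0.0446 and adjusted p = 0.999 by edgeR). The groups did not overlap in Lef1, for which WT replicate 4 had 2.92 CPM and the other WT libraries 4.11 to 4.19 CPM. They did not overlap in 2.31% of all tested genes. Of the lists described below, 1 of 8 astrocyte endfoot markers and 3 of 10 microglia markers also had groups without overlap.

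Arterial and venous genes were the only one of these lists with most members below 0, 9 of 11 tested (median -0.06), with Sema3g, an arterial semaphorin gene, at -0.17 (SE 0.13) and the Notch target Hey1 at -0.06 (SE 0.05). Among 8 tested genes of leak and activation 5 lay above 0 (median 0.03). Icam1, which encodes an adhesion molecule for leukocytes, had 1.89 ± 0.60 CPM in Cre and 1.40 ± 0.20 CPM in WT (log2 fold change 0.44, SE 0.24), and the TNF receptor gene Tnfrsf1a had 0.19 (SE 0.11). Sele and Selp, the selectin genes of inflamed endothelium, had too few counts to be tested. Basement membrane genes were split evenly, 6 of 12 above 0 (median 0.003), with the laminin genes Lamb1 at -0.12 (SE 0.06) and Lama2 at 0.09 (SE 0.06). Of the paralogs, 3 had enough counts, with Ly6a at 0.11 (SE 0.10) and Ly6e at -0.08 (SE 0.08).

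Markers of the cells around the endothelium gave these values, with 0 past the threshold in each list by the same 4 tests. Of 11 pericyte markers 8 lay below 0 (median -0.02), with the aminopeptidase gene Anpep at -0.26 (SE 0.25) and Higd1b at -0.20 (SE 0.21). Of 8 smooth muscle markers 6 lay above 0 (median 0.03), with the kinase gene Mylk at 0.11 (SE 0.08) and the myosin light chain gene Myl9 at 0.13 (SE 0.15). Of the fibroblast markers 9 of 10 lay below 0 (median -0.33), where Igfbp2 had 20.2 ± 0.91 CPM in Cre and 25.6 ± 9.25 CPM in WT and the proteoglycan gene Dcn had -0.17 (SE 0.11). The fibroblast markers stood high in WT replicate 2: the median deviation from each marker's mean log2 CPM was -0.26 to 0.05 in the Cre libraries, 1.14 in WT replicate 2, 0.13 in WT replicate 1, and -0.46 and -0.40 in WT replicates 3 and 4, below every Cre library. Over all tested genes 3.5% had an unadjusted p under 0.05 by edgeR, 2.05% as higher. All 8 astrocyte endfoot markers lay above 0 (median 0.07, 1 at such a p), with the potassium channel gene Kcnj10 at 0.14 (SE 0.04) and the connexin gene Gja1 at 0.12 (SE 0.06). All 10 microglia markers lay above 0 too (median 0.19, 6 at such a p), with the complement gene C1qb at 0.33 (SE 0.10) and the receptor gene Csf1r at 0.17 (SE 0.06). Microglia markers stood apart in Cre replicate 1, with a sum of 557 CPM. The other Cre libraries had 422 to 434 CPM and the WT libraries 387 to 418 CPM. The 4 tested perivascular macrophage markers had a median of -0.03, with Cd163 at -0.41 (SE 0.36) and Mrc1 at 0.07 (SE 0.26), and the 5 red blood cell genes a median of 0.06, with Alas2 at -0.40 (SE 0.27) and Hba-a2 at 0.21 (SE 0.29). All 8 oligodendrocyte markers lay above 0 (median 0.15, 2 at an unadjusted p under 0.05), with the myelin genes Mobp and Mal both at 0.20 (SE 0.08 each). The 7 excitatory and 6 interneuron markers had medians of 0.01 and -0.01. All 7 tested choroid plexus markers lay below 0 (4 at an unadjusted p under 0.05), where Ttr had 878 CPM in WT replicate 1 and 1.70 to 8.75 CPM in the other WT libraries. The part of these cell types in the levels of the endothelial genes was not tested.

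**Figure D4:**
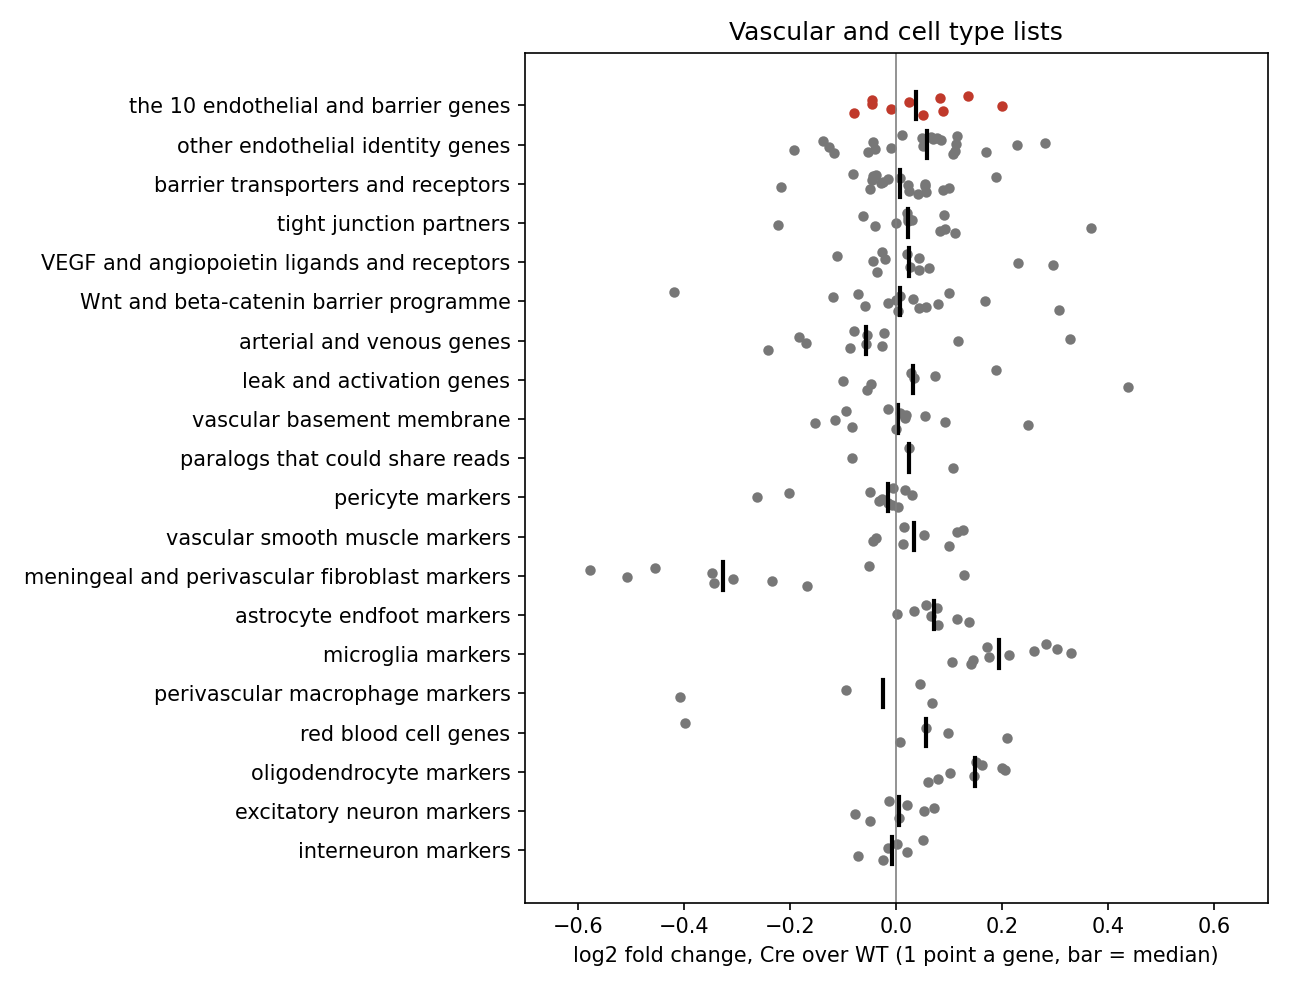
Log2 fold change of Cre over WT for every tested gene of each list (points) with the list's median (bars), the 10 endothelial and barrier genes in red. Their median of 0.04 lies beside 0.06 for other endothelial genes. Microglia markers, whose sum stood highest in Cre replicate 1, have a median of 0.19. Fibroblast markers have a median of -0.33. By median deviation they were high in WT replicate 2 and lower in WT replicates 3 and 4 than in any Cre library. By summed CPM, WT replicates 3 (144 CPM) and 4 (142 CPM) lay within the Cre range of 141 to 159 CPM. Choroid plexus markers, with a median of -1.20, are left out of the plot.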

How the data were processed

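Per the labels' protocols, poly(A) RNA of mouse hippocampus was made into directional libraries and sequenced as paired reads of 150 bases. For each gene symbol the authors deposited raw counts in whole numbers. GRCm38, STAR 2.6.1d, featureCounts and edgeR 3.11 are listed per the submitters' processing notes. The annotation release, the strand setting and the treatment of reads that match several genes are not given in the sources in hand. The authors also deposited log2 fold changes, a signed fold and a mean abundance (score values) and p-values of their own comparison, of which the log2 fold changes and p-values of single genes are quoted. The genes and lists were chosen with earlier results of these data known, from their symbols and textbook roles.

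After filterByExpr (counts of at least 10, totals of at least 15) 15859 genes remained, and counts were scaled by the trimmed mean of M values (TMM). Cre was compared with WT over all 8 libraries by edgeR's quasi-likelihood test (edgeR 4.0.16, R 4.3.3, no covariate, 2-sided, Benjamini-Hochberg over all tested genes, threshold 0.05). SE and 95% intervals come from the size of the change and its F statistic. They are unstable where the change is near 0, with an SE of 0.02 for Col4a1 (log2 fold change -0.001) and 0.64 for Nid2 (0.008). The test was checked on simulated counts. Log2 CPM used a prior count of 2. Named are all 10 genes with every library and, of each other list, the 2 genes with the smallest unadjusted p. The 5 genes most alike over the libraries, the paralogs, Syt2 and Camk2a are named too. Symbols Vegfd, Cavin1 and Cavin2 were matched through RefSeq synonyms. Positions and exon lengths are from GENCODE M21, promoter windows from RefSeq, and coding sequences were aligned globally with Biopython 1.88. DESeq2 1.42.0, limma voom (3.58.1) and other scalings and filters were alternatives. Pairs of same-genotype libraries differed by 3.42 to 10.1 times the chi-square that counting alone gives, so none was taken for a library deposited again; this does not show that they came from separate animals. Library totals ran from 21339996 to 27826871 counts; the median SE was 0.07 on the log2 scale.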

Additional observations from a re-analysis of the deposited data

Results flagged for a closer look

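In groups of 4 libraries, a value was looked at again where the gap between the highest or lowest library and its neighbour took up more than 0.83 of the group's range. Chance alone gives this in about 1 of 20 groups, and 158 groups of values were looked at.

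Among the 10 genes this held for Pecam1 in WT replicate 2, at 16.7 CPM against 11.1 to 11.8 CPM in the other WT libraries, and for Flt1 in Cre replicate 1, at 54.8 CPM where the remaining Cre libraries had 47.8 to 48.9 CPM. Without WT replicate 2 the log2 fold change of Pecam1 was 0.08, and without Cre replicate 1 that of Flt1 was 0.04.

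Of the genes and lists set beside them, WT replicate 1 stood apart in Ttr (878 CPM against 1.70 to 8.75), Clic6 (24.5 CPM against 0.33 to 0.74), Icam1 (1.70 CPM against 1.29 to 1.32) and the sum of choroid plexus markers (1595 CPM against 128 to 152), each against the other WT libraries. WT replicate 2 was high in the sum of smooth muscle markers (78.2 CPM against 44.8 to 48.3) and in Mrc1 (2.78 CPM against 1.28 to 1.495), and low in Lamb1 (44.7 CPM against 48.5 to 48.8). WT replicate 4 was low in Lef1 (2.92 CPM against 4.11 to 4.19). Among the Cre libraries, replicate 1 was high in the sum of microglia markers (557 CPM against 422 to 434) and replicate 3 low in Hba-a2 (0.82 CPM against 1.61 to 1.71).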

How the results depend on the processing

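Under all 17 alternatives run (3 other tests, 3 other scalings, 2 other filters, the replicate block and each library left out) 0 of the 10 genes passed the threshold, and 4 to 7 of all genes did, beside 5 in the test reported. The log2 fold changes of Ly6c1 (0.17 to 0.25), Flt1 (0.04 to 0.12), Abcb1a (0.03 to 0.15) and Mfsd2a (0.02 to 0.24) stayed above 0 in these alternatives. The other 6 genes changed sign only where 1 library was left out, with 12 such values in 6 of these 8 fits. Cldn5 was -0.0266 without Cre replicate 1 and -0.0543 without WT replicate 4, and Tek -0.0243 and -0.0800 without the same libraries. Slco1a4 was 0.0006 without Cre replicate 3, 0.0397 without Cre replicate 4, 0.0379 without WT replicate 1 and 0.0374 without WT replicate 2. Kdr was 0.0429 without Cre replicate 4 and 0.0332 without WT replicate 1, and without WT replicate 2 Pecam1 was 0.0822 and Cdh5 0.0753. Over the 8 fits without a library, Cldn5 ran from -0.0543 to 0.161, Tek from -0.0800 to 0.1344, Slco1a4 from -0.1053 to 0.0397, Kdr from -0.167 to 0.0429, Pecam1 from -0.1372 to 0.0822 and Cdh5 from -0.1194 to 0.0753. The cause was not tested. The median of the 10 genes was -0.03 without Cre replicate 1 and -0.07 without WT replicate 4, and up to 0.10 without WT replicate 2. Same-numbered Cre and WT libraries had correlations of 0.20, -0.11, 0.02 and 0.02 in their deviations from the genotype means. The 0.20 of replicate 1 was the highest between any Cre and WT library, but Cre replicate 4 was closest to WT replicate 2 (0.18). The numbers were therefore not taken as pairs. A fit with the replicate block called 6 genes, 0 of them among the 10, with a median of 0.05. With the block the unadjusted p by edgeR went from 0.371 to 0.0781 for Mfsd2a and from 0.684 to 0.402 for Cldn5. It rose for Ly6c1 (0.0177 to 0.0309), Pecam1, Slco1a4 and Cdh5, and fell for the other genes. With 4 libraries a genotype, each gene's interval shows which changes these data leave possible, though only roughly where the change is near 0.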
